A study of Mus musculus with 40 samples.

Results

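RNA sequencing of the dorsal hippocampus was used to compare the response of gene expression to learning between old and young mice. In the old mice Hdac3 was to be deleted in excitatory neurons there, and the young mice were wildtype. The response, called the training effect here, is the level 60 min after object location memory (OLM) training minus the level in mice taken from the homecage. The quantity described is the training effect in old HDAC3flox/flox mice minus the training effect in young wildtype mice, computed for every gene whose mean RPKM (the reads of a gene scaled by its exon length and by all mapped reads of the library) was at least 0.5 over the libraries compared. That left 14158 of 20953 genes and 28 of the 40 libraries of the series, 1 library per mouse. Old HDAC3flox/flox mice were 18 to 20 months old and gave 8 OLM and 8 homecage libraries. Young wildtype mice were 2 to 4 months old and gave 6 and 6. The labels give the strain C57BL/6J for all of them. The old mice, trained and homecage alike, had received an adeno-associated virus that expressed Cre recombinase from the CaMKII promoter, which is active in excitatory neurons, so that Hdac3 was to be deleted in those neurons while RNA came from punches of whole tissue. The young libraries came from an earlier study by the same group, and no infusion is described for these mice in the sources used here. Age, deletion, infusion and study therefore cannot be told apart between the groups, while each training effect was measured within 1 group of mice.

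HDAC3 is a histone deacetylase that works in a corepressor complex with NCoR proteins and keeps many genes at a low level of transcription. Learning switches on immediate-early genes in activated neurons within minutes, first transcription factors such as Fos and the Egr family, and then effector genes and inhibitors that end the signal of the MAP kinase cascade. Per1, a repressor of the circadian clock, is also induced by neuronal activity and by glucocorticoids. Microglia, the resident macrophages of the brain, carry genes of complement, antigen presentation and lysosomal breakdown. Genes of these kinds stood higher in the old homecage mice than in the young, and which cells they came from was not tested.

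Hdac3 was lower in every old HDAC3flox/flox library than in every young wildtype library. In young mice it ran from 32.2 to 35.3 RPKM in the homecage (median 32.8, n = 6) and from 31.1 to 35.5 RPKM after OLM (median 32.4, n = 6). In old HDAC3flox/flox mice it ran from 13.1 to 18.0 RPKM in the homecage (median 16.5, n = 8) and from 11.6 to 24.2 RPKM after OLM (median 19.1, n = 8). Its training effect differed by 0.17 ± 0.16 (SE) between the groups on the log2(RPKM + 0.5) scale, which was used for every difference here and understates the change of low genes (limma, unadjusted p = 0.294, adjusted p = 0.68).

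Depth estimated from the steps between low values ran from 18.6 to 38.9 M reads per old library and from 24.8 to 36.0 M reads per young library. Young libraries resembled each other more than old ones did: the median over genes of the SD between mice on the log2 scale was 0.09 in young homecage and 0.11 in young OLM mice against 0.26 in old homecage and 0.24 in old OLM mice. Libraries are named here by group and replicate, numbered in the order of the sample list. Homecage replicate 7 and OLM replicate 2 of the old mice stood apart, with Xkr4, a neuronal membrane protein, at 0.57 and 0.58 RPKM against 3.33 to 7.94 RPKM elsewhere, and with the highest total RPKM. Homecage replicate 4 and OLM replicate 3 of the old mice had the levels of immune genes that were usual for the opposite condition, as given with each gene group. Summed neocortex markers were highest in the former among old homecage mice and lowest in the latter among old OLM mice (126 and 84.9 RPKM). The same held for glutamate receptor subunits (662 and 497 RPKM) and clock genes (448 and 365 RPKM). The pair did not hold both places for dentate, CA1, CA3 or interneuron markers. The labels of both libraries were kept, and whether the 2 libraries were exchanged was not tested. For Per1, a clock gene, they stood at 14.2 and 15.8 RPKM, and 15.8 RPKM was the lowest value of the old OLM mice. The Per1 ranges of the old homecage and OLM mice, which did not overlap, were taken with both libraries in their labelled groups. OLM replicate 4 of the young mice had Ttr, a marker of choroid plexus, at 9030 RPKM. Markers of dentate granule cells, CA1 and CA3 pyramidal cells were present in every library, and the summed RPKM of 12 dentate markers ran from 186 to 252 in young and from 34.8 to 406 in old libraries.

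No gene passed the test for a different training effect, for which the unadjusted p had to lie below 0.05 and the p adjusted by the Benjamini-Hochberg method below 0.15. The counts were 0 higher and 0 lower (0% of 14158 genes in each direction), and the smallest adjusted p in limma was 0.403. At an unadjusted p under 0.05, the training effect was higher in old HDAC3flox/flox mice for 448 genes (3.16%) and lower for 1294 genes (9.14%). This split depended on scaling, with 677 higher and 1135 lower after median-ratio scaling and 1003 higher and 881 lower after quantile normalization, both still without a call. With the variance fitted by group, 682 were higher and 1816 lower, and the smallest adjusted p in limma was 0.161, also without a call. The median difference over all genes was -0.02, and 44.9% of genes lay above 0. The counts given for gene groups below are to be read against these shares of all genes.

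Leaving out 1 mouse produced calls in 2 of 28 cases. Without old homecage replicate 4, the test called 218 genes higher (1.54%) and 867 lower (6.12%), and without old OLM replicate 3 it called 618 higher (4.37%) and 1730 lower (12.2%). Of the genes called in the first case, 206 of the 218 higher and 857 of the 867 lower were also called in the second. With all libraries in place, 210 of the 218 and 804 of the 867 had an unadjusted p under 0.05 in the same direction. Leaving out any other single library gave 0 calls. Weighting each library by how closely it followed its group called 2631 genes higher and 3877 lower. Without the 2 libraries low in Xkr4, an alternative chosen after the data were seen, the test called 0 genes higher and 1 lower, and the gene was Tfg.

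**Figure D1:**
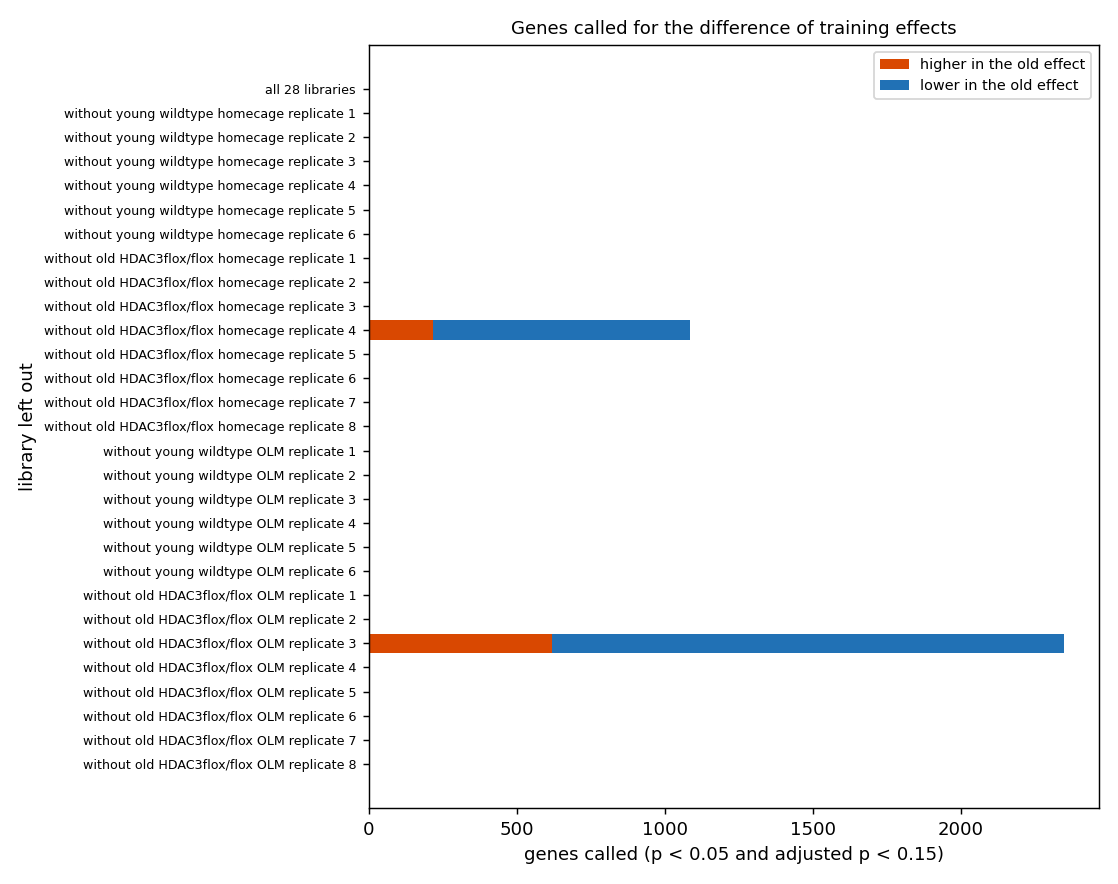
Number of genes called for a different training effect (horizontal axis, genes with p under 0.05 and adjusted p under 0.15) with all 28 libraries and with each library left out in turn (vertical axis), split into genes higher and genes lower in the old effect. Bars appear in 2 of the 28 omissions, old homecage replicate 4 (218 higher, 867 lower) and old OLM replicate 3 (618 higher, 1730 lower).

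Both training effects that enter the difference were tested on their own groups. After OLM, 44 genes rose (0.311%) and 15 fell (0.106%) in young wildtype mice, with 902 higher (6.37%) and 536 lower (3.79%) at an unadjusted p under 0.05. In old HDAC3flox/flox mice 0 genes passed in either direction in limma, with 654 higher (4.62%) and 1750 lower (12.4%) at an unadjusted p under 0.05 and a smallest adjusted p of 0.154. The study tested with Cyber-T and reported genes induced by training in these mice, among them Per1, Nr4a1, Egr1 and Tsc22d3. Limma replaced Cyber-T here, so the counts are not those of the study. The young counts depended on single mice, since leaving out 1 library gave from 5 to 505 higher and from 0 to 457 lower, the largest counts without OLM replicate 4. The old counts did too, with 585 higher and 1634 lower without homecage replicate 4 and 914 higher and 2142 lower without OLM replicate 3.

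Effects in the old mice were larger and more scattered than in the young. Across genes, the SD of the training effect was 0.10 in young and 0.36 in old mice, and the 2 effects had a Pearson r of 0.02 (Spearman rho -0.02) over 14158 genes, which are not independent replicates. Of the 44 genes that rose in young mice, 32 had an effect above 0 in old mice and 12 below, with 7 higher and 2 lower at an unadjusted p under 0.05. Over all genes, 47.6% lay above 0 in the old mice. Of the 15 genes that fell in young mice, 5 lay above 0 and 10 below in the old. At an unadjusted p under 0.05 in both groups, 109 genes moved in the same direction (69 higher, 40 lower) and 71 in opposite directions (41 higher in young and lower in old, 30 the reverse). In young mice, every OLM mouse lay above every homecage mouse for 104 of the 14158 genes and below for 38. In old mice, this held for 2 and 1. The old groups held more mice and were more widely spread, and separation of single genes below is to be read against these counts.

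**Figure D2:**
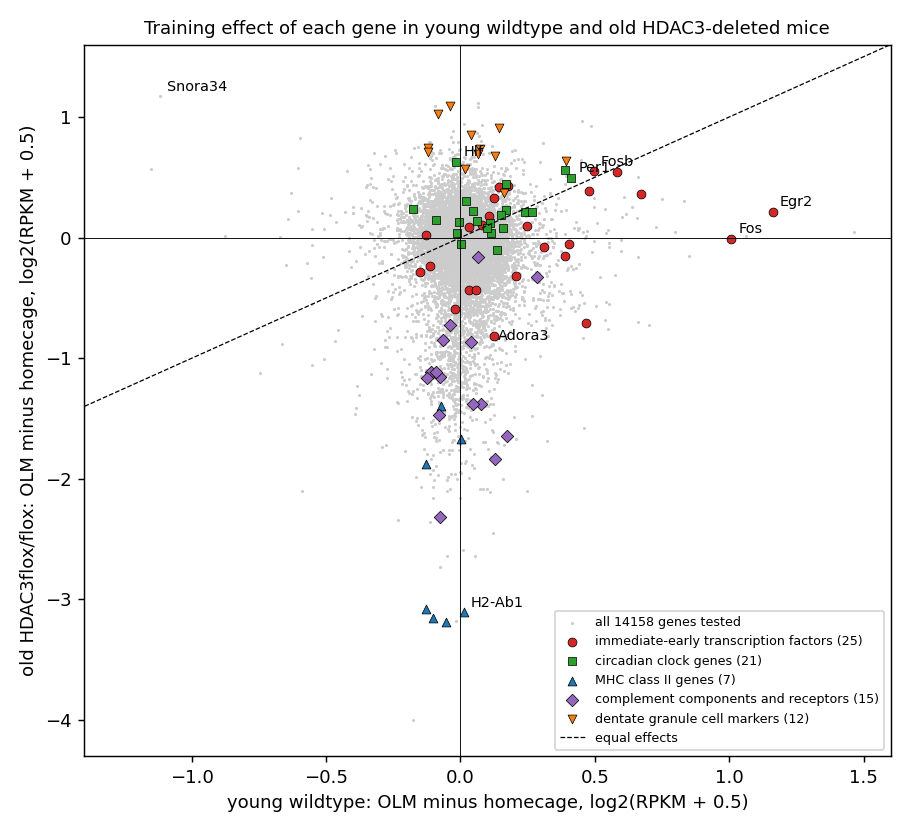
Training effect in young wildtype mice (horizontal axis) against training effect in old HDAC3flox/flox mice (vertical axis), both as OLM minus homecage on log2(RPKM + 0.5), 1 point per gene, with 5 gene groups in colour and a dashed line at equal effects. MHC class II and complement genes lie near 0 in young and below 0 in old mice, Egr2 and Fos lie right of the dashed line, and Per1 and Fosb lie close to it.

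Immediate-early transcription factors gave the 4 largest rises of the young mice (Egr2, Fos, Egr1 and Egr4) and a mixed pattern in the old. Of 25 tested, 6 rose in young mice (Fos, Fosb, Egr1, Egr2, Egr4 and Nr4a1). The difference was below 0 for 17 and above 0 for 8, with 0 higher and 6 lower at an unadjusted p under 0.05 and a median of -0.15. Over all genes the median was -0.02, and 9.14% were lower at that level. The members with the smallest p of the difference were Egr2 and Fos, whose homecage medians were higher in old than in young mice. Homecage levels were not compared by a test, because age, infusion and study separate the groups.

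Egr2, a zinc finger transcription factor, ran from 0.17 to 0.61 RPKM in young homecage mice (median 0.24) and from 1.08 to 1.66 RPKM in young OLM mice (median 1.18). In old mice it ran from 0.32 to 2.19 RPKM in the homecage (median 1.08) and from 0.75 to 2.23 RPKM after OLM (median 1.20). The young groups did not overlap, whereas 7 of 8 old OLM mice lay within the range of the old homecage mice. Egr2 rose by 1.16 ± 0.12 in young mice (SE, limma, adjusted p = 0.00442) and was 0.21 ± 0.22 higher in old mice, a difference of -0.95 ± 0.28 (unadjusted p = 0.00229, adjusted p = 0.403). An adjusted p of 0.403 holds for the difference of each gene given below unless another is printed.

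Fos, a subunit of the AP-1 factor, had medians of 2.19 RPKM (1.75 to 5.11) in young homecage and 5.32 RPKM (4.33 to 6.69) in young OLM mice. The old medians were 9.78 RPKM (5.22 to 15.0) in the homecage and 9.22 RPKM (4.84 to 20.0) after OLM. In the young, 4 of 6 OLM mice lay above every homecage mouse, and in the old 2 of 8 did and 1 lay below all of them. Its effect was 1.01 ± 0.19 in young mice (adjusted p = 0.0967) and -0.01 ± 0.26 in old mice, and the difference was -1.02 ± 0.36 (unadjusted p = 0.00834). Klf4 (-0.39 ± 0.15), Maff (-0.94 ± 0.39), Atf3 (-1.17 ± 0.52) and Junb (-0.54 ± 0.24), all transcription factors of the same early wave, completed the 6 with a lower old effect at an unadjusted p under 0.05. Maff was itself higher in old homecage mice (median 2.79 RPKM, 0.58 to 5.44) than after OLM (median 0.96 RPKM, 0.67 to 3.57). Its lowest homecage mouse was replicate 4 and its highest OLM mouse replicate 3, the libraries that stood apart for immune genes, and the same held for Gadd45b (8.47 and 20.9 RPKM), Cyr61 (3.48 and 21.9 RPKM) and Nfkbia (17.1 and 45.8 RPKM). The part of these libraries in the differences of the 4 genes was not tested.

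Other members had effects above 0 in both young and old mice. Fosb, a Fos relative that accumulates with repeated activity, had medians of 1.37 RPKM (1.12 to 1.62) and 2.20 RPKM (1.67 to 2.64) in young homecage and OLM mice and of 1.82 RPKM (1.29 to 2.12) and 2.83 RPKM (2.33 to 3.43) in old ones. Every OLM mouse lay above every homecage mouse in both groups, which held for only 1 other gene of all those tested, Per1. The Fosb effects were 0.50 ± 0.10 in young mice (adjusted p = 0.118) and 0.55 ± 0.10 in old mice (adjusted p = 0.156), with a difference of 0.06 ± 0.14 (95% interval -0.24 to 0.35, adjusted p = 0.909). Egr4, another Egr factor, was 0.58 ± 0.08 higher in young and 0.55 ± 0.17 higher in old mice, a difference of -0.04 ± 0.21 (interval -0.47 to 0.40, adjusted p = 0.965) whose sign changed under median-ratio scaling and quantile normalization. Nr4a1, an orphan nuclear receptor, had effects of 0.48 ± 0.08 and 0.39 ± 0.21 and a difference of -0.09 ± 0.26 (interval -0.63 to 0.45, adjusted p = 0.921). Egr1 had effects of 0.67 ± 0.09 and 0.36 ± 0.18 and a difference of -0.31 ± 0.23 (interval -0.79 to 0.17, unadjusted p = 0.191, adjusted p = 0.58). For Nr4a1, Egr1 and Egr4, each young OLM mouse lay above each young homecage mouse. Of the old OLM mice, 3 of 8 lay above each old homecage mouse for Nr4a1 and Egr1, and 5 of 8 for Egr4. Full separation upward held for 104 of all genes tested in the young and for 2 in the old. These intervals leave room for a difference in either direction.

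**Figure D3:**
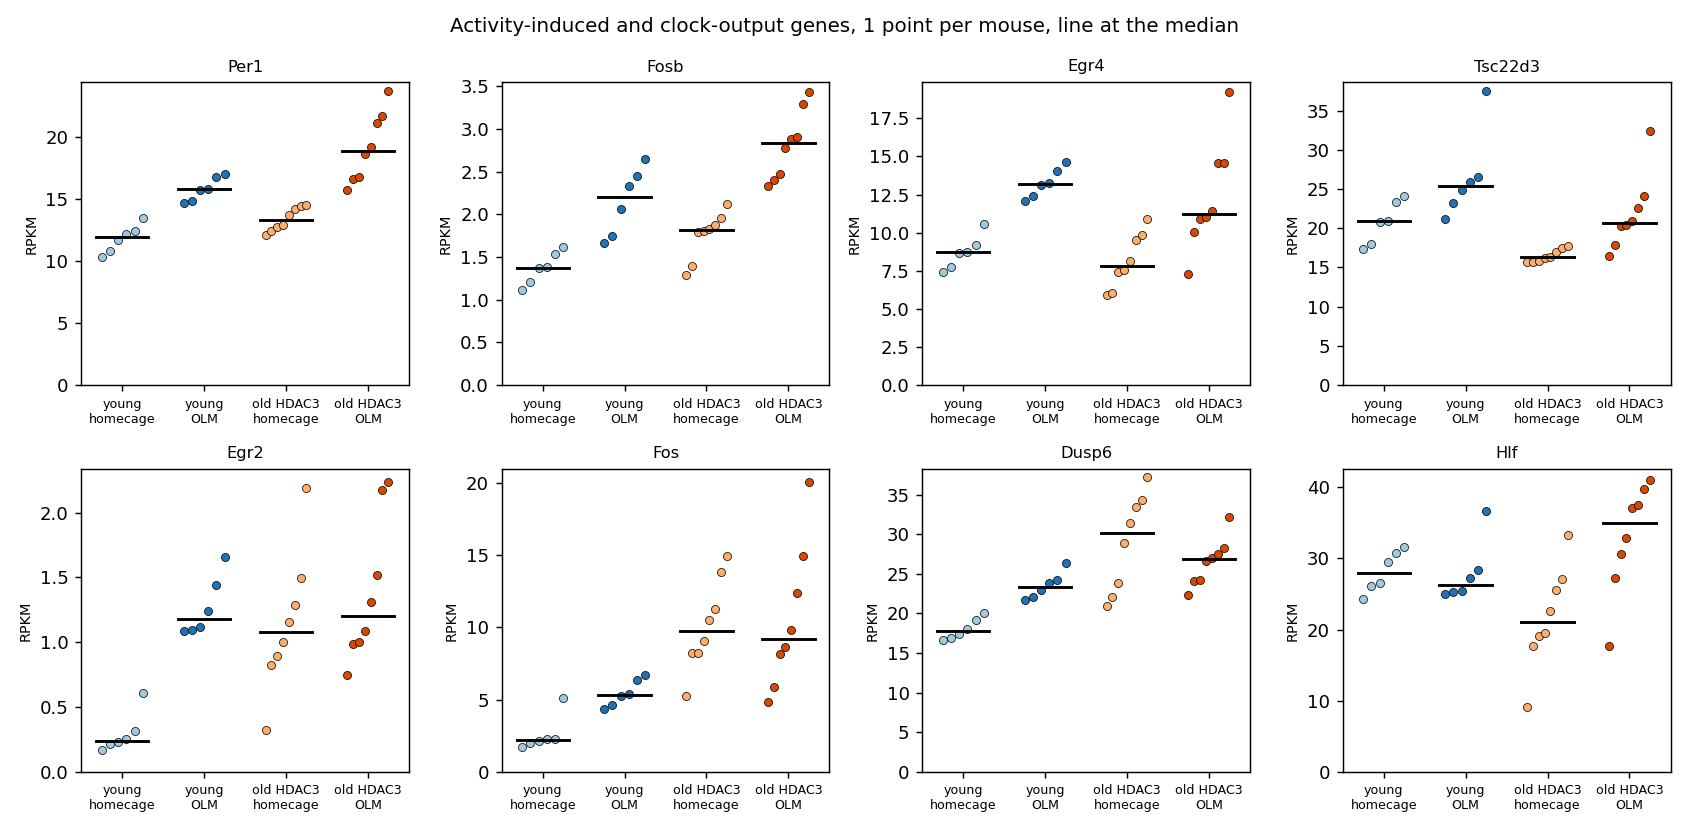
RPKM (vertical axes, from 0) of 8 activity-induced and clock-output genes in each mouse, by group, with a line at the group median. OLM and homecage mice do not overlap for Per1 and Fosb in either group, while Egr2, Egr4 and Dusp6 separate in the young only, and Egr2, Fos and Dusp6 have higher homecage medians in the old.

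Of 12 inhibitors that end MAP kinase signalling, 4 rose in young mice (Dusp5, Dusp6, Spry4 and Errfi1) and 0 passed in old mice. The difference was below 0 for 7 and above 0 for 5. Of the 12, 1 was lower at an unadjusted p under 0.05, a share no higher than the 9.14% of all genes tested. The group's median of -0.13 became 0.01 after quantile normalization. Dusp6, a phosphatase that inactivates ERK, ran from 16.6 to 20.1 RPKM in young homecage mice (median 17.7) and from 21.7 to 26.4 RPKM after OLM (median 23.4). In old mice the ranges were 21.0 to 37.2 RPKM (median 30.2) and 22.4 to 32.1 RPKM (median 26.8), so that all 8 OLM mice lay within the homecage range. Its effects were 0.37 ± 0.06 (adjusted p = 0.043) and -0.11 ± 0.12, with a difference of -0.48 ± 0.15 (unadjusted p = 0.00314). Dusp5, which acts on ERK in the nucleus, had effects of 0.47 ± 0.08 and 0.01 ± 0.21 and a difference of -0.45 ± 0.26 (unadjusted p = 0.0988, adjusted p = 0.46). Errfi1, which blocks the EGF receptor once induced, had effects of 0.27 ± 0.04 and 0.13 ± 0.08 and a difference of -0.14 ± 0.10 (adjusted p = 0.573).

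Among 22 activity-induced effector genes, the median difference was -0.16, with 9 above 0, 13 below 0 and 4 lower at an unadjusted p under 0.05. Of all genes tested, 9.14% were lower at that level. Tiparp, a poly-ADP-ribose polymerase, had medians of 4.08 and 4.93 RPKM in young homecage and OLM mice without overlap between them. The old medians were 4.74 RPKM (4.21 to 6.47) and 4.59 RPKM (3.97 to 5.84), and the difference was -0.35 ± 0.13 (unadjusted p = 0.0121). Rgs2, a regulator of G protein signalling, differed by -0.25 ± 0.11 (unadjusted p = 0.0376). For Gadd45b, a stress-induced gene with a part in DNA demethylation, and Cyr61, a matricellular protein, the old homecage level was the highest of the 4 groups. Gadd45b had medians of 6.20 and 7.11 RPKM in young homecage and OLM mice and of 17.5 RPKM (8.47 to 39.7) and 10.1 RPKM (6.86 to 20.9) in old ones, a difference of -0.78 ± 0.36 (unadjusted p = 0.0426). Cyr61 had medians of 1.42 and 1.26 RPKM in the young and of 14.7 RPKM (3.48 to 26.9) and 3.59 RPKM (1.82 to 21.9) in the old, a difference of -1.17 ± 0.56 (unadjusted p = 0.0474). The old groups overlapped for both genes.

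Of 21 clock genes tested, 3 passed the adjusted threshold as higher in young mice (Per1, Per2 and Bhlhe40), and 0 passed in old mice. With no adjustment, limma gave 4 genes higher and 1 lower in young mice at p under 0.05. In old mice these counts were 7 and 0. Among all genes tested, that level was reached by 6.37% (higher) and 3.79% (lower) in young mice. In old mice it was reached by 4.62% and 12.4%. The difference was above 0 for 14 and below 0 for 7, with 2 higher and 0 lower at that level, and its median was 0.06. Over all genes, 3.16% had a higher and 9.14% a lower difference. In the summed RPKM of the clock genes, homecage replicate 4 was the highest old homecage mouse and OLM replicate 3 the lowest old OLM mouse. Per1 ran from 10.3 to 13.5 RPKM in young homecage mice (median 11.9) and from 14.7 to 17.0 RPKM after OLM (median 15.8). In old mice it ran from 12.1 to 14.5 RPKM (median 13.3) and from 15.8 to 23.8 RPKM (median 18.9). OLM and homecage mice did not overlap in either group. The effects of 0.41 ± 0.06 (adjusted p = 0.043) and 0.50 ± 0.08 (adjusted p = 0.154) differed by 0.09 ± 0.11, with an interval from -0.14 to 0.31 (unadjusted p = 0.446, adjusted p = 0.785). Per2, which acts with Per1 as a repressor of the clock, had effects of 0.39 ± 0.06 (adjusted p = 0.0602) and 0.56 ± 0.18 and a difference of 0.17 ± 0.22 (adjusted p = 0.783).

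Hlf and Tef, PAR-domain bZIP factors that carry the clock's rhythm to target genes, were the clock genes with a higher old effect at an unadjusted p under 0.05. Hlf had medians of 28.02 RPKM (24.3 to 31.7) and 26.3 RPKM (25.04 to 36.7) in young homecage and OLM mice and of 21.1 RPKM (9.04 to 33.3) and 35.0 RPKM (17.6 to 41.0) in old ones. In the old mice, 7 of 8 OLM mice lay above the homecage median and 4 above every homecage mouse, while the young groups overlapped. Its effects were -0.02 ± 0.09 and 0.63 ± 0.22, a difference of 0.64 ± 0.28 (unadjusted p = 0.029). Tef had medians of 78.2 and 78.3 RPKM in the young and of 74.8 RPKM (56.2 to 94.3) and 91.6 RPKM (71.2 to 110.2) in the old, a difference of 0.28 ± 0.13 (unadjusted p = 0.0401). The old groups overlapped, with 3 of 8 OLM mice above every homecage mouse.

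The starts of these genes are shown because Per1, Hlf and Tef were the clock genes that the comparison turned on. Each sequence is the RefSeq promoter (GRCm38.p6), from 250 bases before to 50 bases after a start site, read 5′ to 3′ along the gene. Capitals mark a CRE (TGACGTCA, the site of CREB, read on both strands) or an E-box (CACGTG, the site of CLOCK and BMAL1, the same on both strands). Per1 has 2 start sites in the table and Tef 2. The Per1 window shown was chosen because it held a motif, and the other (chr11:69099902-69100201, plus strand) held neither, while both Tef windows held an E-box, 127 and 138 bases before the start. The study assayed a CRE of the Per1 promoter, and its guide to that CRE holds TGACGTCA, so that site lies outside both Per1 windows. The windows shown are Per1 at chr11:69098699-69098998 on the plus strand, Hlf at chr11:90390868-90391167 on the minus strand and Tef at chr15:81811164-81811463 on the plus strand.
Per1: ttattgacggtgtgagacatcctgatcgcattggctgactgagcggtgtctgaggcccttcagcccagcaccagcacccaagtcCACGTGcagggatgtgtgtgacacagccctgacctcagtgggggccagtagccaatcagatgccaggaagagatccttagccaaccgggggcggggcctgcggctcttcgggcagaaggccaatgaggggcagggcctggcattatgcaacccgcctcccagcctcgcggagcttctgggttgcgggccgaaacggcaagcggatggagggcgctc
Hlf: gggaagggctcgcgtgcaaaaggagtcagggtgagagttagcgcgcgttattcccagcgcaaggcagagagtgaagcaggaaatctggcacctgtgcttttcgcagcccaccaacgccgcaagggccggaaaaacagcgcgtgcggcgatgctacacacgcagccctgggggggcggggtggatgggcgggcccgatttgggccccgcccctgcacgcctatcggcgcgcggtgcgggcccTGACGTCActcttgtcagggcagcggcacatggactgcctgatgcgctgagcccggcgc
Tef: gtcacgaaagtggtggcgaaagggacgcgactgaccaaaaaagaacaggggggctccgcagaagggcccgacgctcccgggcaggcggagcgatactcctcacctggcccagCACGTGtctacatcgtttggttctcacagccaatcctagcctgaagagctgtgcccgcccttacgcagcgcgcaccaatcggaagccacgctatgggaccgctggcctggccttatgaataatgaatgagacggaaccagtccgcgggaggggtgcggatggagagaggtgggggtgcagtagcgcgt
The Per1 window held an E-box 166 bases before the start, the Hlf window a CRE 9 bases before it, and the Tef window an E-box 138 bases before it. Of 32851 RefSeq promoters of this length, 7.15% held this E-box and 1.79% this CRE. Counted by gene, 5 of the 18 clock genes with a promoter in the table held an E-box (27.8%) and 1 held a CRE, against 11.6% and 3.5% of the 10712 genes tested that matched. Among 22 immediate-early transcription factors with a promoter, 4 held an E-box and 2 a CRE. A match is a description of letters and not a site of binding.

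Of 24 glucocorticoid-responsive genes, 2 passed the adjusted threshold as higher in young mice (Errfi1 and Per1), and 0 passed in old mice. With no adjustment, limma gave 9 genes higher and 0 lower in young mice at p under 0.05. The old mice had 7 and 0. Among all genes tested, that level was reached by 6.37% (higher) and 3.79% (lower) in young mice. In old mice it was reached by 4.62% and 12.4%. The difference was above 0 for 14 and below 0 for 10, and its median was 0.04. Tsc22d3, which encodes the leucine zipper protein GILZ, had medians of 20.9 RPKM (17.4 to 24.1) and 25.4 RPKM (21.1 to 37.5) in young homecage and OLM mice and of 16.3 RPKM (15.7 to 17.7) and 20.7 RPKM (16.5 to 32.3) in old ones. In the old, 7 of 8 OLM mice lay above every homecage mouse. The effects were 0.33 ± 0.12 and 0.37 ± 0.10, and the difference was 0.04 ± 0.16 (interval -0.30 to 0.38, adjusted p = 0.947). Fkbp5, a chaperone of the glucocorticoid receptor, had effects of 0.06 ± 0.04 and 0.31 ± 0.11 and a difference of 0.25 ± 0.14 (unadjusted p = 0.087, adjusted p = 0.443). Nfkbia, the inhibitor of NF-kappaB, was the group's only gene with an unadjusted p under 0.05 for the difference (-0.75 ± 0.33, unadjusted p = 0.0297), with medians of 12.3 and 15.4 RPKM in young homecage and OLM mice and of 28.8 RPKM (17.1 to 53.4) and 17.6 RPKM (14.6 to 45.8) in old ones. A lower difference at that level was found for 9.14% of all genes tested.

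Of 15 heat shock and protein folding genes, 14 had a lower effect in old mice and 1 a higher one, with a median of -0.11. Of these, 1 was lower at an unadjusted p under 0.05, a share no higher than the 9.14% of all genes tested. Hspd1, the mitochondrial chaperonin, was the 1 gene with an unadjusted p under 0.05 (-0.16 ± 0.07, unadjusted p = 0.0343). Its medians were 27.9 and 29.1 RPKM in young homecage and OLM mice and 25.4 RPKM (24.4 to 28.9) and 24.8 RPKM (24.2 to 25.5) in old ones. Hspa5, the chaperone BiP of the endoplasmic reticulum, had effects of 0.28 ± 0.14 and -0.22 ± 0.18 (difference -0.49 ± 0.25, unadjusted p = 0.0581, adjusted p = 0.405).

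Immune genes had the lowest median differences among the 37 gene groups. Summed by group, they stood lower in each young mouse than in each old homecage mouse, and the old homecage levels were widely spread. For most of the genes named, 7 of 8 old OLM mice lay below the old homecage median. In each of the complement, MHC class I, MHC class II, interferon, T cell, B cell and lysosomal groups, every gene tested had a lower training effect in old than in young mice. Genes near 0 RPKM in young mice passed the level filter through the old mice and had little room for an effect in the young, so that counts over these groups describe the genes and are no independent support. In bulk tissue, fewer cells of a type and less RNA per cell cannot be told apart.

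MHC class II genes, which present antigen on microglia, macrophages, dendritic cells and B cells, had the lowest median difference of all groups at -2.96 (7 genes, 7 lower at an unadjusted p under 0.05). Their summed RPKM ran from 8.90 to 22.8 in young homecage mice and from 8.22 to 23.2 in young OLM mice. In old homecage mice it ran from 55.1 to 4214 with a median of 1934, and in old OLM mice from 39.0 to 3826 with a median of 104. The groups of old mice overlapped through 1 mouse on each side. Homecage replicate 4 was the lowest of its group at 55.1, with the next at 783, and OLM replicate 3 was the highest of its group at 3826, with the next at 424. H2-Ab1, the beta chain of I-A, had medians of 0.58 RPKM (0.20 to 3.31) and 0.77 RPKM (0.36 to 2.38) in young homecage and OLM mice. Its old medians were 364 RPKM (8.25 to 704) and 18.1 RPKM (5.93 to 738), and the difference was -3.12 ± 1.25 (interval -5.68 to -0.55, unadjusted p = 0.0191). Ciita, the transactivator that switches on class II genes, had medians of 0.10 RPKM in both young groups and of 3.30 RPKM (0.12 to 6.36) and 0.27 RPKM (0.15 to 7.80) in the old ones, a difference of -1.67 ± 0.66 (unadjusted p = 0.0179). H2-Eb1 (-2.96 ± 1.21) and H2-DMa (-1.33 ± 0.52), a chain of the peptide loading complex, had unadjusted p of 0.0217 and 0.016.

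MHC class I genes and the machinery that loads peptide onto them, used by nearly all cells, had a median difference of -1.44 (13 genes, 13 below 0, 8 lower at an unadjusted p under 0.05). Summed RPKM ran from 143 to 227 in young homecage and from 148 to 198 in young OLM mice. Old homecage mice ran from 792 to 6851 (median 3916) and old OLM mice from 537 to 4578 (median 915), again with replicate 4 lowest in the homecage and replicate 3 highest after OLM. B2m, the common light chain of class I, had medians of 97.4 RPKM (82.5 to 138) and 98.4 RPKM (87.9 to 115) in young mice. In old mice it had medians of 1954 RPKM (460 to 3449) in the homecage and 512 RPKM (303 to 2376) after OLM, with 4 of 8 OLM mice below every homecage mouse, and a difference of -1.44 ± 0.55 (unadjusted p = 0.0152). H2-K1 (-1.60 ± 0.66), H2-Q4 (-1.54 ± 0.63) and H2-M3 (-1.19 ± 0.47), class I heavy chains, had unadjusted p of 0.0224, 0.0209 and 0.018. Members of this family are near-identical in parts, and reads that matched several places were removed by the authors, so their levels are uncertain.

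Interferon-stimulated genes had a median difference of -0.75 (20 genes, 20 below 0). Of the 20, 1 was lower at an unadjusted p under 0.05, a share no higher than the 9.14% of all genes tested. Gbp2, a guanylate-binding protein induced by interferon gamma, had medians of 2.09 RPKM (0.998 to 2.80) and 1.83 RPKM (1.504 to 2.67) in young mice and of 172 RPKM (9.93 to 393) and 15.8 RPKM (9.75 to 192) in old homecage and OLM mice. The difference was -2.16 ± 0.89 (unadjusted p = 0.0227), and 7 of 8 old OLM mice lay below the homecage median.

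The promoters of B2m and Gbp2 are shown in the same way, as the class I gene with the lowest p and the interferon-stimulated gene with the lowest p. Capitals mark the core bound by interferon regulatory factors (GAAANNGAA, read on both strands). The B2m window is chr2:122147437-122147736 and the Gbp2 window chr3:142620413-142620712, both on the plus strand of GRCm38.p6.
B2m: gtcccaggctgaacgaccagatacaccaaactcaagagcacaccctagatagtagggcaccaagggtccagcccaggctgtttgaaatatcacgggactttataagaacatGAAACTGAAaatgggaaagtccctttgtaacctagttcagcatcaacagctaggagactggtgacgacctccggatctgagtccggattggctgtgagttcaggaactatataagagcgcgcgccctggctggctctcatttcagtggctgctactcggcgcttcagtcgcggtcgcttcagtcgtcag
Gbp2: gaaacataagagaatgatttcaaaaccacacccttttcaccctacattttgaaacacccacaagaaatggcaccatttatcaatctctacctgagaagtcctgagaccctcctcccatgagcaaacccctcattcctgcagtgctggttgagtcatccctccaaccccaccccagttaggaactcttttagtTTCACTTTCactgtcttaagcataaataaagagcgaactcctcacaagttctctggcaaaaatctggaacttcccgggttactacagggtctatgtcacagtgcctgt
B2m held the core 139 bases before its start on the strand of the gene, and Gbp2 held it 58 bases before its start on the opposite strand. Of all 32851 promoters, 8.56% held it. Counted by gene, 11 of 15 interferon-stimulated genes with a promoter in the table did (73.3%), 2 of 11 class I genes, 1 of 9 complement genes and 0 of 4 class II genes, against 8.8% of the genes tested that matched. No match means only that these letters were not in the window.

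Complement genes, which tag cells and synapses for removal, had a median difference of -1.04 (15 genes, 15 below 0, 11 lower at an unadjusted p under 0.05). Summed RPKM ran from 126 to 143 in young homecage, from 120 to 143 in young OLM, from 483 to 2977 in old homecage and from 339 to 1890 in old OLM mice. Serping1, the inhibitor of C1, had medians of 2.75 RPKM (2.39 to 6.59) and 3.27 RPKM (2.50 to 7.37) in the young and of 63.8 RPKM (13.1 to 140) and 11.6 RPKM (7.53 to 81.2) in the old, with 5 of 8 old OLM mice below every homecage mouse. Its difference was -1.81 ± 0.67 (unadjusted p = 0.0116). C1ra, a protease of the C1 complex (-1.46 ± 0.54), Itgb2, the beta chain of complement receptor 3 (-1.39 ± 0.57), and C3ar1, the receptor of C3a (-1.43 ± 0.59), had unadjusted p of 0.0122, 0.021 and 0.0231. The training effects of these 3 genes in young mice lay between -0.08 and 0.08.

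T cell genes summed to a higher level in every old than in every young mouse, whereas the lowest old OLM mouse for B cell genes, at 0.38 summed RPKM, lay within the young range of 0.24 to 1.18 RPKM. The 14 T cell genes summed to between 0.62 and 2.00 RPKM in young homecage and between 0.84 and 1.61 RPKM in young OLM mice, and to between 31.9 and 603 RPKM in old homecage (median 220) and between 12.8 and 325 RPKM in old OLM mice (median 38.8). All 14 had a lower effect in old mice (median -1.42), 8 of them at an unadjusted p under 0.05. Lck, the kinase of the T cell receptor, had medians of 6.46 RPKM (1.14 to 10.7) and 1.37 RPKM (0.87 to 9.73) in old homecage and OLM mice and a difference of -1.43 ± 0.55 (unadjusted p = 0.0149). Cd4 (-1.48 ± 0.58) and Cd2 (-1.75 ± 0.71), surface receptors of T cells, and Nkg7 (-1.62 ± 0.66), a granule protein of cytotoxic cells, had unadjusted p of 0.0157, 0.0207 and 0.0214. Cd2 was at 0 in some mice of both young groups, with a highest value of 0.13 RPKM.

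The 6 B cell and plasma cell genes summed to at most 1.18 RPKM in young mice, to between 2.97 and 830 RPKM in old homecage mice (median 94.3) and to between 0.38 and 1280 RPKM in old OLM mice (median 2.24). Cd79a, a chain of the B cell receptor, had medians of 3.42 RPKM (0.40 to 20.6) in old homecage and 0.15 RPKM (0.05 to 21.7) in old OLM mice. In that gene 7 of 8 OLM mice lay below every homecage mouse and 1, replicate 3, above every one. Its difference was -2.05 ± 0.93 (unadjusted p = 0.0372), and Jchain, the joining chain of antibodies, differed by -3.82 ± 1.85 (unadjusted p = 0.0481) with a range from 0.04 to 1122 RPKM over the old OLM mice. The median difference of the group was -2.01.

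Chemokines and their receptors, which draw immune cells into tissue, had a median difference of -1.39 (18 genes, 16 below 0 and 2 above, 8 lower at an unadjusted p under 0.05). Cxcl13, which attracts B cells, was listed at 0 in some young mice and never above 0.19 RPKM in them. In old mice its medians were 36.8 RPKM (10.7 to 131) in the homecage and 6.395 RPKM (3.18 to 23.6) after OLM, and 8 of 8 OLM mice lay below the homecage median. The old effect was -2.16 ± 0.50 (unadjusted p = 0.000512, adjusted p = 0.242) and the difference -2.06 ± 0.61 (unadjusted p = 0.00222). Cxcr4 (-1.78 ± 0.69) and Ccr2 (-1.56 ± 0.61), receptors on T cells and monocytes, had unadjusted p of 0.0161 and 0.0168.

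**Figure D4:**
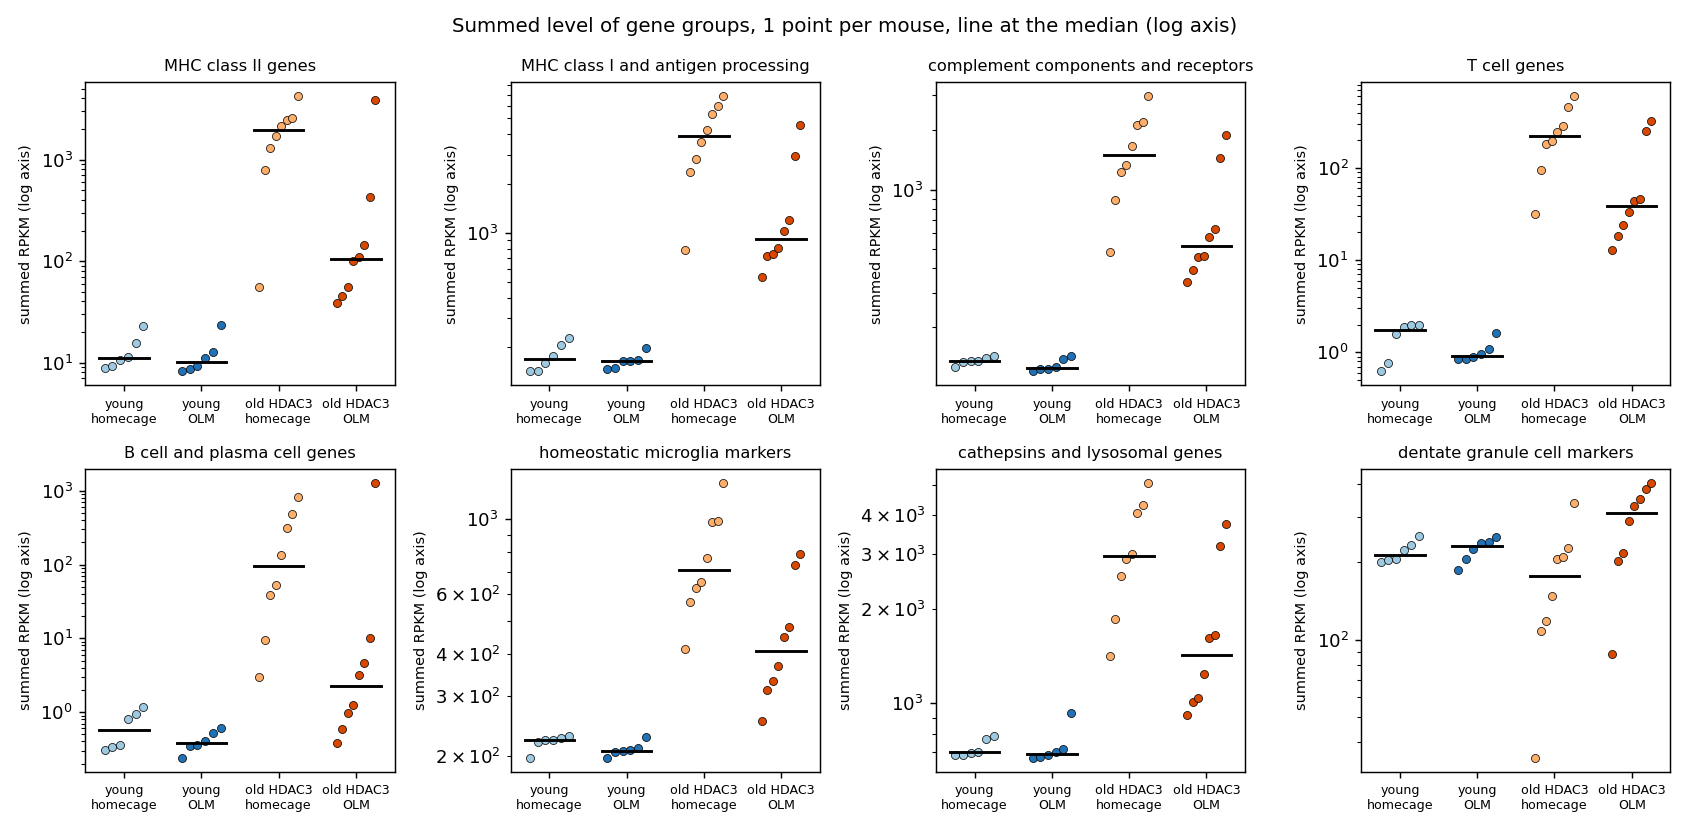
Summed RPKM of 8 gene groups in each mouse (vertical axes, logarithmic), by group, with a line at the group median. The young groups sit together for the immune groups, old homecage mice have the highest medians, and for MHC class II genes 1 old homecage mouse (55.1) and 1 old OLM mouse (3826) lie apart from the rest of their group.

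Microglial genes followed with smaller differences. The 14 homeostatic markers had a median of -0.59 (13 below 0 and 1 above, 9 lower at an unadjusted p under 0.05), and their summed RPKM ran from 197 to 228 in the young, from 413 to 1282 in old homecage (median 709) and from 253 to 788 in old OLM mice (median 408). Sall1, a transcription factor that maintains microglial identity, had medians of 4.39 and 4.57 RPKM in young homecage and OLM mice and of 7.21 RPKM (5.28 to 10.5) and 4.78 RPKM (3.83 to 6.72) in old ones. In the old, 6 of 8 OLM mice lay below every homecage mouse, and the difference was -0.53 ± 0.17 (unadjusted p = 0.00324). Tmem119 (-0.66 ± 0.25) and Olfml3 (-0.66 ± 0.25), used as markers of resident microglia, had unadjusted p of 0.0144 and 0.0157.

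Genes of disease-associated microglia (15 tested, median -0.80, 8 lower at an unadjusted p under 0.05) and of cathepsins and lysosomes (15 tested, median -0.89, 11 lower) had no member above 0. Cst7, a cystatin of activated microglia, stayed at or below 0.34 RPKM in young mice and had medians of 44.5 RPKM (13.3 to 92.8) and 14.8 RPKM (3.89 to 43.1) in old homecage and OLM mice, a difference of -1.62 ± 0.61 (unadjusted p = 0.0131). Lgals3, a galectin of phagocytes, differed by -2.34 ± 0.97 (unadjusted p = 0.0226), and Cybb, a subunit of the phagocyte oxidase, by -1.70 ± 0.72 (unadjusted p = 0.0253). Ctss, a cathepsin that prepares class II molecules, had medians of 52.9 and 49.1 RPKM in the young and of 726 RPKM (187 to 1145) and 203 RPKM (128 to 988) in the old, a difference of -1.28 ± 0.54 (unadjusted p = 0.0261). Ctsc (-1.44 ± 0.53), Lgmn (-0.89 ± 0.34) and Ctsh (-1.401 ± 0.56) had unadjusted p of 0.0119, 0.0144 and 0.0191.

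All 15 reactive astrocyte genes had a difference below 0 (median -0.83, 3 lower at an unadjusted p under 0.05), while 12 general astrocyte markers were evenly split (6 and 6, median 0.00). Vim, an intermediate filament, had medians of 24.1 and 27.4 RPKM in young homecage and OLM mice and of 315 RPKM (99.1 to 642) and 102 RPKM (44.4 to 525) in old ones, a difference of -1.49 ± 0.63 (unadjusted p = 0.0263). Gfap, the filament of astrocytes, had medians of 93.6 and 99.8 RPKM in the young and of 579 RPKM (431 to 762) and 404 RPKM (271 to 794) in the old, a difference of -0.54 ± 0.24 (unadjusted p = 0.0329). Aqp4, the water channel of astrocyte endfeet, had medians of 25.7 RPKM (24.4 to 27.7) and 29.9 RPKM (27.5 to 32.02) in the young and of 61.1 RPKM (52.8 to 82.2) and 48.6 RPKM (34.8 to 86.0) in the old. Its effects were 0.20 ± 0.05 (adjusted p = 0.165) and -0.35 ± 0.16, and the difference was -0.54 ± 0.19 (unadjusted p = 0.00766).

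Genes of the oligodendrocyte lineage gave 0 calls for the difference in limma. All 14 myelin and oligodendrocyte markers had a difference below 0 (median -0.51), with 2 lower at an unadjusted p under 0.05 against 9.14% of all genes tested, with a median effect of 0.19 in young and -0.36 in old mice. Ermn, a cytoskeletal protein of myelinating cells, had medians of 23.6 and 28.7 RPKM in young homecage and OLM mice and of 44.2 RPKM (28.04 to 67.8) and 30.4 RPKM (16.4 to 48.3) in old ones, a difference of -0.84 ± 0.31 (unadjusted p = 0.0111). Sox10, the lineage's transcription factor, differed by -0.61 ± 0.28 (unadjusted p = 0.0373), and Mag, an adhesion protein of myelin, by -0.67 ± 0.34 (unadjusted p = 0.0635, adjusted p = 0.408). Of 10 precursor markers 9 lay below 0 (median -0.34), among them Gpr17, a receptor of differentiating precursors (-0.58 ± 0.20, unadjusted p = 0.00857), and Bcas1, a marker of newly myelinating cells (-0.78 ± 0.28, unadjusted p = 0.0111).

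Genes of proliferation and neurogenesis had a median difference of -0.39 (10 tested, 8 below 0 and 2 above, 5 lower at an unadjusted p under 0.05). Top2a, a topoisomerase of dividing cells, had medians of 0.31 and 0.47 RPKM in young homecage and OLM mice and of 3.29 RPKM (0.41 to 6.28) and 0.68 RPKM (0.12 to 3.59) in old ones, a difference of -1.50 ± 0.53 (unadjusted p = 0.00878). Cdk1, the kinase of mitosis (-1.01 ± 0.37), and Mki67, a marker of cycling cells (-1.03 ± 0.43), had unadjusted p of 0.0105 and 0.0244. Igfbpl1, a gene of newborn neurons, had medians of 1.601 and 2.31 RPKM in young mice and of 0.26 and 0.14 RPKM in old mice, a difference of -0.68 ± 0.28 (unadjusted p = 0.0214). Ccnd2, a cyclin, was the remaining one at -0.44 ± 0.19.

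Several neuronal groups lay above 0. All 12 dentate granule cell markers had a difference above 0 (median 0.71), with 0 higher at an unadjusted p under 0.05 for the difference and 4 higher in the old mice alone. Plk5, a polo-like kinase enriched in granule cells, had medians of 13.1 RPKM (9.42 to 17.3) and 12.7 RPKM (10.5 to 14.1) in young homecage and OLM mice and of 10.0 RPKM (1.29 to 23.9) and 23.6 RPKM (3.63 to 31.5) in old ones, a difference of 1.13 ± 0.60 (unadjusted p = 0.0717, adjusted p = 0.422). Calb1, a calcium buffer of mature granule cells, differed by 0.55 ± 0.30 (unadjusted p = 0.077, adjusted p = 0.429), and Trpc6, a cation channel, by 0.86 ± 0.46 (unadjusted p = 0.0754, adjusted p = 0.426). The old mice varied widely in these markers, the 12 summing to between 34.8 and 340 RPKM in the homecage (median 177) and to between 88.5 and 406 RPKM after OLM (median 309), against 186 to 252 RPKM over all young mice. Homecage replicate 7 was the lowest and homecage replicate 4 the highest of the old homecage mice. The part of this variation in the other differences was not tested.

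Markers of neocortex were above 0 in 10 of 11 cases (median 0.40, 3 higher at an unadjusted p under 0.05). Mef2c, a transcription factor of excitatory neurons, had medians of 22.3 and 21.4 RPKM in young homecage and OLM mice and of 22 RPKM (9.26 to 30.1) and 31.0 RPKM (21.3 to 43.7) in old ones, with 5 of 8 old OLM mice above every homecage mouse and a difference of 0.67 ± 0.26 (unadjusted p = 0.0145). Tbr1, a transcription factor of deep cortical layers (0.59 ± 0.25), and Rprm, a marker of layer VI (0.77 ± 0.36), had unadjusted p of 0.0253 and 0.0431. The summed RPKM of the 11 markers ran from 110 to 156 in young, from 67.6 to 126 in old homecage and from 84.9 to 201 in old OLM mice, and whether more cortex in some punches contributed was not tested. Homecage replicate 4 was the highest old homecage mouse and OLM replicate 3 the lowest old OLM mouse in this sum. The part of these libraries in the differences was not tested.

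Glutamate receptor subunits were above 0 in 21 of 22 cases, with a median of 0.20 and 1 higher at an unadjusted p under 0.05. That gene was Grik3, a kainate receptor subunit, with medians of 6.02 and 5.67 RPKM in young homecage and OLM mice and of 4.01 RPKM (1.12 to 6.10) and 5.93 RPKM (4.66 to 8.34) in old ones. All 8 old OLM mice lay above the homecage median, and the difference was 0.68 ± 0.29 (unadjusted p = 0.0252). Grm2, a presynaptic metabotropic receptor abundant in granule cells, had effects of 0.07 ± 0.08 and 1.12 ± 0.50 and a difference of 1.05 ± 0.60 (unadjusted p = 0.0906, adjusted p = 0.446). In the summed RPKM of the 22 subunits, homecage replicate 4 was the highest old homecage mouse and OLM replicate 3 the lowest old OLM mouse. Their part in the differences was not tested. CA1 markers (10 tested, median 0.25) and interneuron markers (12 tested, median 0.03) had 0 genes at an unadjusted p under 0.05 in limma in either direction, and both medians changed sign under at least 1 alternative.

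Prkcd, a protein kinase C enriched in thalamus and in part of CA3, was the 1 gene at an unadjusted p under 0.05 among both the CA3 and the thalamus markers. It ran from 7.54 to 15.5 RPKM in young homecage mice (median 11.8), from 10.7 to 30.01 RPKM after OLM (median 15.6), from 10.8 to 36.9 RPKM in old homecage mice (median 24.7) and from 9.20 to 28.1 RPKM after OLM (median 13.6). The groups overlapped in young and old mice. The highest young OLM mouse (replicate 4) and the highest old homecage mouse (replicate 2) were also the highest of their groups in summed thalamus and habenula markers, at 146 against a median of 61.6 RPKM and at 94.7 against 56.7 RPKM. In the old, homecage replicate 4 was the lowest homecage mouse and OLM replicate 3 the highest OLM mouse for Prkcd. The part of these libraries in its difference was not tested. Its effects were 0.66 ± 0.25 and -0.70 ± 0.24, and the difference was -1.35 ± 0.36 (unadjusted p = 0.000949). The median difference was -0.13 over 9 CA3 markers and -0.34 over 11 thalamus and habenula markers. Among 11 striatum and septum markers, Dlx5, a homeobox gene of inhibitory neurons, differed by -0.50 ± 0.18 (unadjusted p = 0.00854) while the group's median was 0.04.

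**Figure D5:**
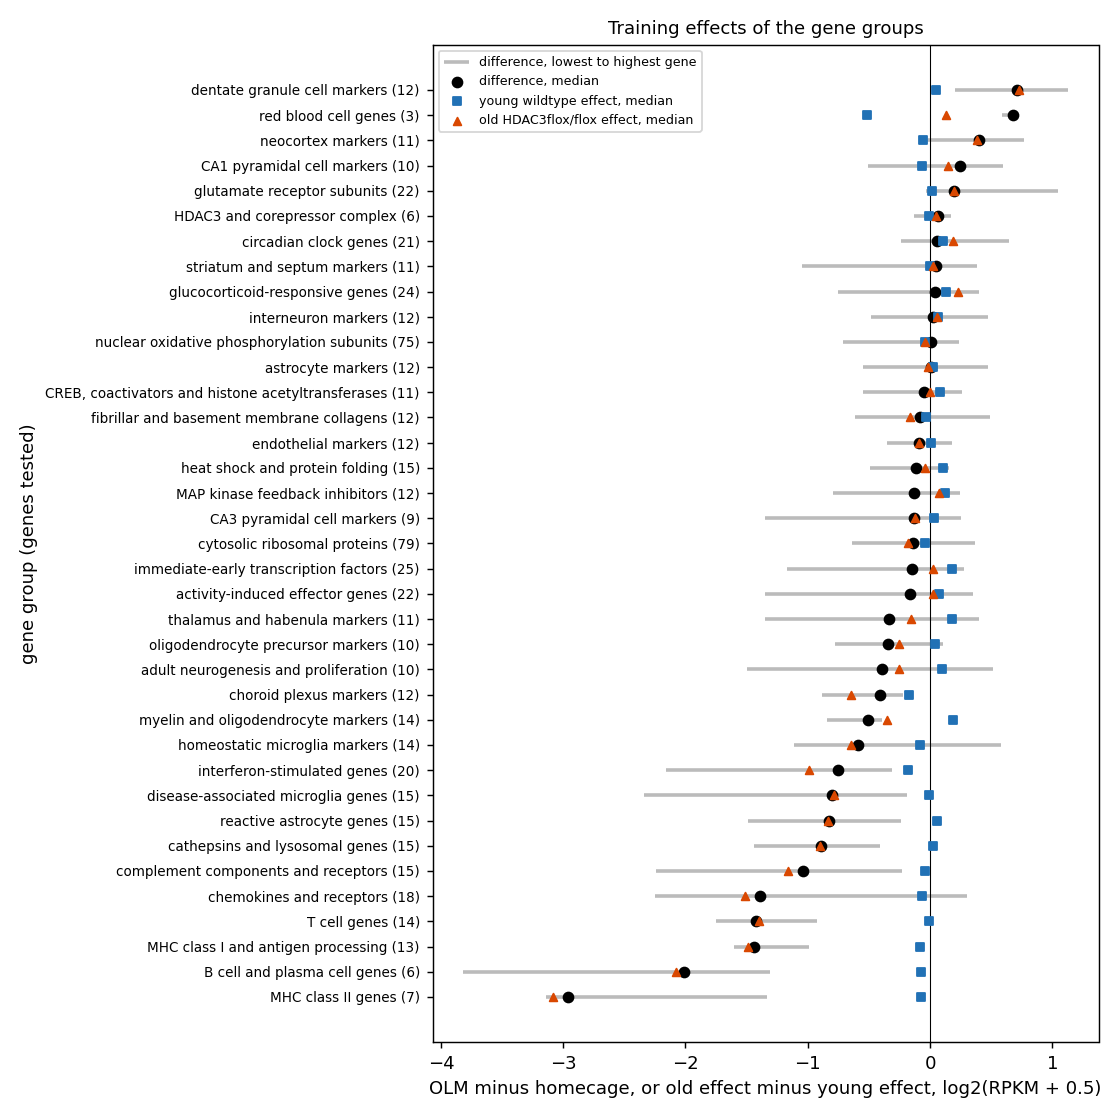
Median training effect in young wildtype mice (squares) and in old HDAC3flox/flox mice (triangles), with the median (circles) and the range over genes (lines) of the difference, for 37 gene groups, all on log2(RPKM + 0.5) (horizontal axis). MHC class II genes have the lowest median at -2.96 and dentate granule cell markers the highest at 0.71, and the young medians stay close to 0 for most groups.

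Genes of the complex that HDAC3 works in gave small differences. The 6 genes of HDAC3 and its corepressors had a median difference of 0.06, with 4 above 0 and 2 below and 0 at an unadjusted p under 0.05 in limma. Among 11 genes of CREB, its coactivators and acetyltransferases, 8 lay below 0 and 3 above (median -0.05), with 2 lower at an unadjusted p under 0.05. These were Atf1, a CREB relative, with medians of 3.98 RPKM (3.29 to 6.38) and 3.11 RPKM (2.81 to 5.09) in old homecage and OLM mice and a difference of -0.41 ± 0.18 (unadjusted p = 0.0307), and Kat2b, the acetyltransferase PCAF, with a difference of -0.55 ± 0.26 (unadjusted p = 0.0422).

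Groups of other cells and of housekeeping genes gave 0 genes at an unadjusted p under 0.05 for the difference in limma, in either direction. They were endothelial markers (12 genes, median -0.09), choroid plexus markers (12 genes, median -0.41), red blood cell genes (3 genes, median 0.68), collagens (12 genes, median -0.08), cytosolic ribosomal proteins (79 genes, 63 below 0, median -0.14) and nuclear subunits of oxidative phosphorylation (75 genes, median 0.01). The median of the choroid plexus markers ran from -1.17 with library weights to 0.25 without young OLM replicate 4, so that its sign rested on that mouse, and it was -1.03 without old OLM replicate 4. Choroid plexus markers summed to between 70.7 and 10340 RPKM over young mice and between 43.8 and 7057 RPKM over old mice.

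Outside these groups, the genes with the smallest p for a higher effect in old mice, with a mean of at least 1 RPKM in 1 of the 4 groups, included cytoskeletal and membrane proteins. Sptbn4, the beta-IV spectrin of the axon initial segment, had medians of 19.8 RPKM (18.9 to 21.2) and 18.6 RPKM (15.5 to 19.4) in young homecage and OLM mice and of 17.2 RPKM (15.3 to 19.3) and 22.3 RPKM (15.7 to 25.4) in old ones. In the old, 7 of 8 OLM mice lay above every homecage mouse and 1, replicate 3, below the homecage median. The effects were -0.13 ± 0.05 and 0.31 ± 0.08, and the difference was 0.45 ± 0.10 (unadjusted p = 0.000227). Galnt14, a glycosyltransferase, differed by 0.49 ± 0.12 (unadjusted p = 0.000461) with 6 of 8 old OLM mice above every homecage mouse. Slc4a3, an anion exchanger, differed by 0.43 ± 0.11 (unadjusted p = 0.000576) with 7 of 8 above. A430046D13Rik, an unnamed transcript (0.38 ± 0.10), Pnpla3, a lipase (0.46 ± 0.12), Atxn7l2, a relative of ataxin 7 (0.46 ± 0.12), and Ybx2, a nucleic acid binding protein (0.59 ± 0.16), followed with unadjusted p from 0.000699 to 0.000955.

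The remaining 3 of the 10 were low or short transcripts. Snora34, a small nucleolar RNA, had medians of 1.85 RPKM (0.74 to 3.04) and 0.52 RPKM (0 to 2.09) in young homecage and OLM mice and of 0.38 RPKM (0 to 0.85) and 1.53 RPKM (0.26 to 3.50) in old ones, a difference of 2.29 ± 0.52 (unadjusted p = 0.000164). Its groups overlapped in both. DQ267100 differed by 1.72 ± 0.46 (unadjusted p = 0.000817) and Gm5577 by 0.78 ± 0.21 (unadjusted p = 0.000992), with medians of at most 2.31 RPKM in all 4 groups. Libraries were made from RNA selected by its poly-A tail, a step that short RNAs without a tail largely escape.

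Of the 10 genes with the smallest p for a lower effect in old mice, Adora3, an adenosine receptor found on microglia in mice, came first. It had medians of 0.48 RPKM (0.32 to 0.58) and 0.55 RPKM (0.32 to 0.77) in young homecage and OLM mice and of 2.40 RPKM (1.35 to 3.59) and 1.05 RPKM (0.64 to 1.64) in old ones. In the old, 6 of 8 OLM mice lay below every homecage mouse and 8 of 8 below the homecage median. The effects were 0.11 ± 0.10 and -0.90 ± 0.18 (adjusted p = 0.242), and the difference was -1.01 ± 0.23 (interval -1.48 to -0.54, unadjusted p = 0.00014). Tfg, a protein of vesicle export from the endoplasmic reticulum, rose in young mice (0.15 ± 0.03, adjusted p = 0.14) without overlap of the groups, from 25.1 to 26.6 RPKM in the homecage and from 27.7 to 32.1 RPKM after OLM. In old mice it ran from 26.5 to 34.2 RPKM and from 23.4 to 30.8 RPKM, with 6 of 8 OLM mice below every homecage mouse, and the difference was -0.33 ± 0.08 (unadjusted p = 0.000364).

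Ints12, a subunit of the Integrator complex, had medians of 3.31 RPKM (2.97 to 3.49) and 3.62 RPKM (3.48 to 4.07) in young homecage and OLM mice and of 4.17 RPKM (3.47 to 5.19) and 3.44 RPKM (3.06 to 4.14) in old ones, a difference of -0.42 ± 0.10 (unadjusted p = 0.000484). Of its young OLM mice 5 of 6 lay above every homecage mouse, and of its old OLM mice 4 of 8 lay below every homecage mouse. Lhfpl3, enriched in oligodendrocyte precursors (-0.54 ± 0.14), Angpt1, a ligand of the endothelial receptor Tek (-0.53 ± 0.14), Slc14a1, a urea transporter of astrocytes (-0.35 ± 0.09), and the lysosomal enzymes Ctbs (-0.51 ± 0.14) and Ctso (-0.47 ± 0.13) had unadjusted p from 0.000832 to 0.0018. Sf3b4, a splicing factor, closed the 10 at -0.28 ± 0.08 (unadjusted p = 0.00188). For Ctbs and Slc14a1 all 8 old OLM mice lay below the old homecage median, as did 7 of 8 for Ctso and Angpt1.

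The genes with opposite effects in the 2 groups at an unadjusted p under 0.05 in both included Ints12, Snora34, Faim2 and Dtx3. Faim2, a neuronal inhibitor of Fas-induced death, was lower after OLM in young mice (medians 96.8 and 93.3 RPKM) and higher in old mice (92.6 and 109 RPKM), with effects of -0.08 ± 0.03 and 0.23 ± 0.08. Dtx3, a ubiquitin ligase of the Deltex family, had effects of -0.08 ± 0.03 and 0.22 ± 0.08. None of these 4 passed the adjusted threshold in either group, where the adjusted p ran from 0.304 to 0.348 in young mice and was 0.242 in old mice.

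The genes with the same direction in both groups were led by Per1, Fosb, Dnase1l2, Tnfrsf25 and Egr4. Dnase1l2, a secreted DNase, had medians of 1.07 RPKM (0.78 to 1.28) and 1.69 RPKM (1.42 to 1.85) in young homecage and OLM mice and of 0.80 RPKM (0.54 to 1.05) and 1.28 RPKM (0.94 to 2.02) in old ones. The young groups did not overlap, and 7 of 8 old OLM mice lay above every homecage mouse. Its effects were 0.50 ± 0.08 (adjusted p = 0.0603) and 0.55 ± 0.12 (adjusted p = 0.242), a difference of 0.05 ± 0.16 (interval -0.28 to 0.38, adjusted p = 0.928). Tnfrsf25, a death-domain receptor of the TNF family, had effects of 0.45 ± 0.11 and 0.96 ± 0.22 and a difference of 0.51 ± 0.28 (interval -0.07 to 1.09, unadjusted p = 0.0816, adjusted p = 0.438), with 6 of 8 old OLM mice above every homecage mouse.

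The 2 omissions that produced calls gave calls in most immune groups, to be read against 6.12% of all genes called lower and 1.54% higher without homecage replicate 4 and 12.2% and 4.37% without OLM replicate 3. Without old homecage replicate 4, the test called all 13 class I, all 7 class II and 11 of 15 complement genes lower, with 5 of 25 immediate-early transcription factors lower and 1 of 21 clock genes higher. Without old OLM replicate 3, it called all 13 class I, all 7 class II, all 6 B cell, 13 of 15 complement and 13 of 14 T cell genes lower, with 8 of 25 immediate-early transcription factors lower and 1 higher, and 2 of 21 clock genes higher. The median difference of MHC class II genes was -3.60 and -3.64 in these fits, against -2.96 with all libraries. Each library left out had an immune level opposite to the rest of its labelled group, so its removal alone moves immune genes lower. The immune counts follow from which library was left out and are no independent support. Whether the immune level of a mouse accounts for the rest of its profile was not tested.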

How the data were processed

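RNA from dorsal hippocampus was sequenced by the authors as single reads of 50 bases from poly-A selected libraries, 1 per mouse. Reads were processed with CASAVA 1.8.2 and aligned to mm10 with ELAND and Bowtie per the methods (Bowtie2 in the submitters' processing notes), and reads matching several places were removed. The authors deposited RPKM values per gene, which were used as deposited. A second deposited table, holding the authors' fold changes and p-values, was not used. Depth is not given with these values and was estimated from the spacing of the 80 lowest values per library, so it is approximate.

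Groups came from the labels. Genes that reached 0.5 RPKM on average in the 28 libraries were tested on log2(RPKM + 0.5) with limma 3.58.1 (R 4.3.3): the difference of training effects over all 28 libraries, and each training effect over its own mice, with Benjamini-Hochberg adjustment over all 14158 genes and p under 0.05 with adjusted p under 0.15 as the threshold, as in the study. The study itself tested with Cyber-T, which limma replaced here. Errors are SE, intervals cover 95%, and n is the number of mice. The procedure was tested on simulated data. The 37 gene lists and the members were chosen with earlier results of these data known. Members of a list in the table and above the level were tested, for instance 25 of 26 immediate-early transcription factors, 13 of 16 class I genes, 6 of 8 B cell genes and 10 of 12 proliferation genes. Named genes were the 10 with the smallest p in each direction and a mean of at least 1 RPKM in 1 of the groups, up to 4 with the smallest p in each list, the 5 leading genes with opposite and the 5 with same effects, and Hdac3, Per1, Nr4a1, Egr1 and Tsc22d3. A few genes that this rule names are not reported here. Atf3, Junb, Per2 and Ccnd2 were named after their values were seen. Alternatives were other pseudocounts, level filters, scalings, thresholds and variance models, a model of all 40 libraries, and each library left out in turn. Promoters came from the RefSeq table of GRCm38.p6. The labels call the samples of a group separate mice only through their titles, and they give no sex and no flow cell per library. Neither was examined, although every flow cell is said to have held all behavioural groups. The study states that the young and the old HDAC3flox/flox groups held both sexes, with as many females among OLM as among homecage mice.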

Additional observations from a re-analysis of the deposited data

Results flagged for a closer look

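The values of 32 named genes and the summed RPKM of 37 gene groups were searched, in each of the 4 groups of mice, for a mouse whose gap to its nearest neighbour took up more of the group's range than Dixon's limit of 95% allows. This picked out 33 of 276 sets of values, where chance gives about 1 in 20, and the mice belonged to 10 libraries. Each ratio below is that gap divided by the range, on a log2 scale.

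OLM replicate 4 of the young mice, the library with the highest Ttr, stood apart 10 times. It was highest in its group for choroid plexus markers (10340 summed RPKM, ratio 0.762), cathepsins and lysosomal genes (929, ratio 0.804), disease-associated microglia genes (1222, ratio 0.658), heat shock genes (1288, ratio 0.665), cytosolic ribosomal proteins (4039, ratio 0.753) and oxidative phosphorylation subunits (10800, ratio 0.802), and for Tfg (32.1 RPKM, ratio 0.644). It was lowest for glutamate receptor subunits (580, ratio 0.665), for CREB and its coactivators (117, ratio 0.745) and for HDAC3 and its corepressors (100.9, ratio 0.644).

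OLM replicate 3 of the old mice stood apart 6 times. It was highest for B cell genes (1280, ratio 0.658) and lowest for clock genes (365, ratio 0.631), activity-induced effector genes (454, ratio 0.529), Sptbn4 (15.7 RPKM, ratio 0.562), Galnt14 (5.45 RPKM, ratio 0.582) and Faim2 (82.4 RPKM, ratio 0.600). Homecage replicate 4 of the old mice was lowest for MHC class II genes (55.1, ratio 0.611) and highest for red blood cell genes (13.6, ratio 0.542).

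The libraries low in Xkr4 stood apart in similar groups. Homecage replicate 7 was highest for oxidative phosphorylation subunits (14740, ratio 0.774) and ribosomal proteins (9586, ratio 0.615) and lowest for HDAC3 and its corepressors (84.2, ratio 0.788) and for CREB and its coactivators (117, ratio 0.652). OLM replicate 2 was highest for oxidative phosphorylation subunits (13470, ratio 0.728) and immediate-early transcription factors (528, ratio 0.644) and lowest for HDAC3 and its corepressors (91.0, ratio 0.705).

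The other 8 cases came from 5 libraries. OLM replicate 4 of the old mice was highest for choroid plexus markers (7057, ratio 0.632), and OLM replicate 5 was lowest for dentate granule cell markers (88.5, ratio 0.539) and for Sf3b4 (5.45 RPKM, ratio 0.539). In the young, OLM replicate 3 was highest for neocortex markers (156, ratio 0.843) and for Slc4a3 (20.1 RPKM, ratio 0.782), homecage replicate 5 was highest for immediate-early transcription factors (304, ratio 0.625) and lowest for homeostatic microglia markers (197, ratio 0.737), and homecage replicate 2 was lowest for Gm5577 (1.81 RPKM, ratio 0.646).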

How the results depend on the processing

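The count of 0 higher and 0 lower genes for the difference held for other pseudocounts, a level of at least 1 RPKM, both scalings, the stricter threshold, the model of all 40 libraries, variance by group and RPKM without logs. With no filter it was 1 higher (Gm960, 0.43, adjusted p = 0.0353 in limma, group means under 0.4 RPKM) and 0 lower, without the 2 libraries low in Xkr4 1 lower (Tfg), with library weights 2631 and 3877, and with no adjustment 448 and 1294. Leaving out 1 library gave from 0 to 618 higher and from 0 to 1730 lower.

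The young effect, 44 higher and 15 lower, became 76 and 33 with no filter, 6 and 0 at an adjusted p under 0.05, 902 and 536 with no adjustment, 2 and 0 in the model of 40 libraries and 693 and 565 with library weights, and median-ratio scaling gave 34 lower. Leaving out 1 library gave from 5 to 505 higher and from 0 to 457 lower. The old effect, 0 and 0, had 3 higher with a pseudocount of 1, 2 at a level of 1 RPKM, 3 after median-ratio scaling, 6 after quantile normalization, 2 with variance by group, 1344 higher and 2253 lower in the model of 40 libraries, 2939 and 4232 with library weights and 654 and 1750 with no adjustment. Leaving out 1 library gave from 0 to 914 higher and from 0 to 2142 lower. The model of 40 libraries shares 1 estimate of the spread between young and old mice, whose spreads differ. The main test of the difference also shares 1 estimate between them. With variance by group its smallest adjusted p in limma was 0.161, against 0.403. The cause of the other changes was not tested.

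Differences close to 0 changed sign. Egr4 was 0.00115 after median-ratio scaling, 0.0522 after quantile normalization and from -0.131 to 0.0616 with 1 library left out. Tsc22d3 was -0.0299 and Fosb -0.0658 with library weights, and Fosb was -0.0204 without the 2 libraries low in Xkr4. With 1 library left out, Tsc22d3 ran from -0.0435 to 0.143, Fosb from -0.000256 to 0.107 and Dnase1l2 from -0.0123 to 0.103. Of the other values for single genes, 4246 kept direction and side of the threshold and 375 passed it. Of the medians of gene groups, 1404 moved by less than the spread and 2 by more (proliferation genes at a level of 1 RPKM, -0.21, and MAP kinase inhibitors after quantile normalization, 0.01).

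No paired analysis was possible because the labels give no replicate numbers that link mice across groups. The median SE of the difference was 0.16 on the log2 scale, and differences of that size were not detectable with these mice.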
